A study of Homo sapiens with 6 samples.

Results

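Immunoglobulin-type (Ig-type) adhesion molecules hold cells to each other and to the matrix through extracellular Ig domains, a single membrane span and a short cytoplasmic tail. They bind copies of themselves, other Ig-type molecules, integrins or laminins, and their tails bind ankyrins, ERM proteins or PDZ scaffold proteins. In carcinoma, CADM1 is known as a tumor suppressor that is often silenced, while MCAM, ALCAM and L1CAM are known markers of melanoma or invasive growth. The 9 genes described here are CADM1, CADM3, CADM4, ALCAM, MCAM, ICAM1, L1CAM, BCAM and NRCAM, found by their symbols among the 23228 genes of the count tables. They were chosen by family and with their differences between these PELP1-KD and control replicates already known, so that the values of the members in this comparison are a description and carry no test here.

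The cells sequenced were MDA-MB-231, a human cell line from a triple negative breast cancer (TNBC). The 3 control replicates stably expressed a shRNA without a target, and the 3 PELP1-KD replicates stably expressed a shRNA against PELP1, a nuclear receptor coregulator. Both lines were selected with puromycin and grown in RPMI with 10% serum. A single shRNA was used against PELP1 according to the methods, so loss of PELP1 and other effects of this shRNA cannot be told apart, and p-values measure only the spread between replicates, since nothing says that these were selected separately. The gene counts summed to between 17304864 and 23132102 reads in a replicate. PELP1 itself had 57.2, 56.0 and 60.2 CPM in the controls and 28.6, 29.8 and 30.2 CPM in PELP1-KD cells, where CPM is the count relative to the library total after scaling by TMM. All PELP1-KD replicates were below all controls, with a log2FC of -0.97 (standard error [SE] 0.055, adjusted p = 1.48e-11 by edgeR's quasi-likelihood test). Among 10 identity genes of the line, VIM was at 2220.0 CPM ± 116 in the controls against 1922 CPM ± 11.2 after knockdown (SD, n = 3), and no replicate had more than 4 reads of CDH1, 1 of ESR1 or 2 of PGR. ERBB2, the other receptor by which TNBC is defined, had 113 CPM ± 3.42 in the controls and 118 CPM ± 8.56 after knockdown (SD, n = 3), and EPCAM had 9.46 and 9.56 CPM on average, both without a call. GATA3 had 6.97 CPM in the controls and 8.08 CPM after knockdown on average, also without a call. VIM, CD44, EGFR and KRT18 were called lower, with CD44 the furthest at a log2FC of -0.55, and none of the list was called higher. These are 4 of its 7 tested genes (57.1%, where 24.2% of all tested genes were called lower and 22.7% higher). The leukocyte markers PTPRC and MS4A1, the endothelial markers TEK and CLDN5 and the neural markers OLIG2, SOX10 and STMN2 had no read in any replicate. The 10 leukocyte markers summed to between 117 and 120 CPM in the controls and between 91.0 and 97.9 CPM in PELP1-KD cells, nearly all of it from CD68. The 10 endothelial markers summed to between 111 and 114 CPM and between 96.7 and 108 CPM, nearly all from ROBO4 and ESAM, and the 10 neural markers to between 62.3 and 65.3 CPM and between 46.3 and 47.2 CPM, the latter nearly all from MBP. Of the marker genes, CD68, ESAM, KDR and MBP were called lower and VWF higher, the latter from 1, 6 and 0 reads in the controls to 12, 20 and 16. Only 2 leukocyte, 5 endothelial and 2 neural markers could be tested. The part of these markers in the results was not tested.

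The default filter of edgeR kept 8 of the 9 genes for the test and removed CADM3, which had no reads. In the fit across all 12796 tested genes, a gene is called when its adjusted p-value is below 0.05. CADM1, ALCAM and L1CAM were called lower and CADM4, MCAM and ICAM1 were called higher in PELP1-KD cells, while BCAM and NRCAM were not called. These 6 calls stand beside a background in which 24.2% of all tested genes were called lower and 22.7% higher, 46.9% in all. With libraries scaled by their totals alone, the share of higher calls among all calls was 61.2% in place of 48.3%. The same 6 members had groups that did not overlap, as did 55.0% of all tested genes. The median log2FC of the 8 tested members was -0.08, against 0.0014 over all tested genes. CADM1 passed the filter only through the control replicates, where it is high, so the count and the median above cannot be read as support.

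The CADM family consists of cell adhesion molecules that bind each other across the cell-cell contact. CADM1 had 12, 24 and 16 reads in control replicates 1, 2 and 3, and 0, 2 and 0 reads in PELP1-KD replicates 1, 2 and 3. This is 0.709, 1.06 and 0.901 CPM in the controls and 0, 0.0937 and 0 CPM in PELP1-KD cells, where a single read is worth between 0.0425 and 0.0591 CPM. All 3 controls were above all PELP1-KD replicates, and both reads left came from PELP1-KD replicate 2. Over the 3 replicates of each group, 52 reads stood against 2, a level 29.2-fold higher in the controls (95% exact binomial interval on the pooled reads 7.68 to 247, which describes counting error only and is no test). CADM1 was a rare transcript in the controls and was nearly undetected in PELP1-KD cells. Fewer cells that express it and less RNA per cell cannot be told apart in such bulk samples.

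CADM4, a member of the same family with a wide epithelial and neural distribution, moved in the opposite direction. It had 17.1, 17.8 and 16.2 CPM in the controls and 28.7, 28.0 and 25.3 CPM in PELP1-KD cells, without overlap. The difference was 60.6%, or a log2FC of 0.68 (SE 0.073). CADM3, mainly a neural member, had 0 reads in all 6 replicates. A floor of 3 reads allows CADM3 a level of at most 0.127 to 0.177 CPM, depending on the replicate. CADM2, a neural relative outside the 9 genes, had 1 read in PELP1-KD replicate 2 and none elsewhere. The CADM transcripts of these cells were therefore almost entirely those of CADM4, and the summed level of the 3 members per exon length rose with it, from 7.66 RPKM ± 0.376 to 12.2 RPKM ± 0.794 (SD, n = 3). RPKM is here the CPM divided by the exon length in kilobases.

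**Figure D1:**
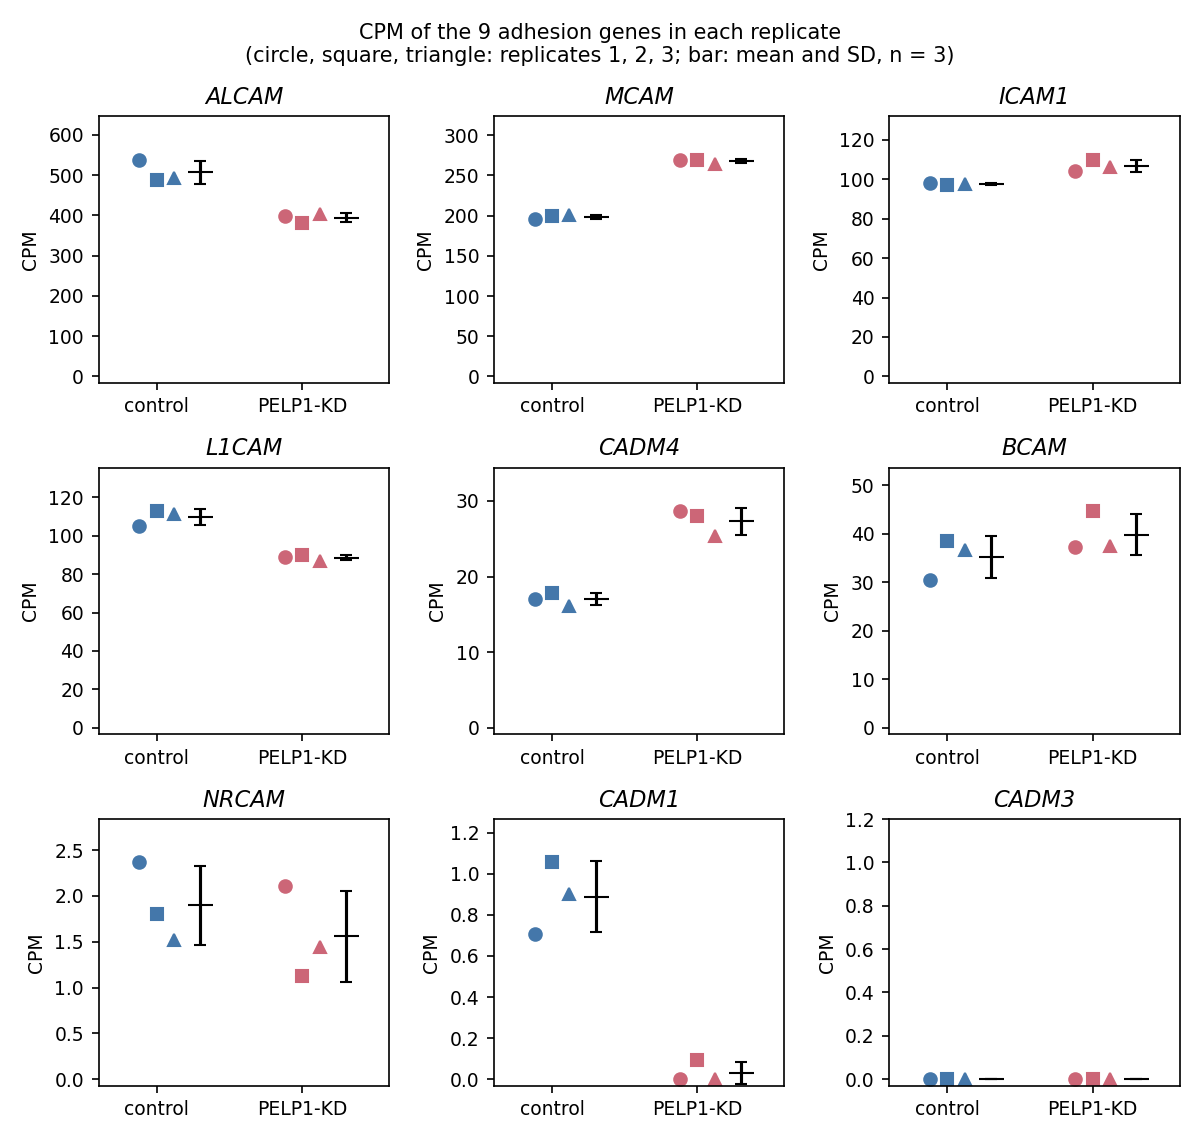
CPM of each of the 9 genes (linear axes, each with its own range) in the 3 control replicates (blue) and the 3 PELP1-KD replicates (red), with circles, squares and triangles for replicates 1, 2 and 3 and black bars for the mean and SD. ALCAM, L1CAM and CADM1 lie lower and MCAM, ICAM1 and CADM4 higher in PELP1-KD cells without overlap, BCAM and NRCAM overlap, and CADM3 is at 0 throughout.

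ALCAM, which binds itself and the T-cell receptor CD6, had the highest level of the 9 genes per exon length. It had 539, 488 and 493 CPM in the controls and 399, 382 and 404 CPM in PELP1-KD cells. Every control was above every PELP1-KD replicate. ALCAM fell by 22.1%, a log2FC of -0.36 (SE 0.036). L1CAM, a neural adhesion molecule that binds itself, integrins and neuropilin-1, had 105, 113 and 111 CPM in the controls and 88.8, 89.9 and 87.1 CPM in PELP1-KD cells. Its groups did not overlap either. L1CAM fell by 19.3%, a log2FC of -0.31 (SE 0.042). NRCAM, a relative of L1CAM in neurons, was rare, with 40, 41 and 27 reads in the controls and 41, 24 and 34 in PELP1-KD cells. The groups of NRCAM overlapped, and its log2FC of -0.29 had a standard error of 0.24. The NRCAM replicates scattered by 22.7% in the controls and 32.0% in PELP1-KD cells, where counting alone gives 16.7% and 17.4%.

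MCAM, a receptor for laminins with the alpha-4 chain and for other matrix ligands, had 196, 199 and 201 CPM in the controls and 269, 269.7 and 264 CPM in PELP1-KD cells. The replicates of each group lay close together, with a coefficient of variation of 1.30% in the controls where counting alone gives 1.62%. MCAM was 34.9% higher in PELP1-KD cells, with a log2FC of 0.43 (SE 0.032). ICAM1, the inducible ligand of the leukocyte integrins, had 98.1, 97.0 and 97.5 CPM in the controls and 104, 110.0 and 106 CPM in PELP1-KD cells. The groups of ICAM1 did not overlap, but the difference was small at 9.43%, a log2FC of 0.13 (SE 0.041). Without control replicate 2, its log2FC was 0.12 and the call was lost. BCAM, the receptor for laminins with the alpha-5 chain, had 30.4, 38.5 and 36.7 CPM in the controls and 37.3, 44.7 and 37.4 CPM in PELP1-KD cells. The BCAM replicates overlapped and scattered by 12.1% in the controls, above the 3.83% that counting gives, with replicate 2 the highest of its group in both. Its log2FC was 0.17 (SE 0.08) without a call. BCAM was called higher without control replicate 2, at a log2FC of 0.25, and when the replicate number was a block in the fit, at 0.18.

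Levels of different genes were compared per exon length. In the controls, ALCAM had 70.6 RPKM ± 3.86, MCAM 26.8 ± 0.347, ICAM1 26.3 ± 0.153, L1CAM 15.1 ± 0.545, CADM4 7.58 ± 0.37, BCAM 7.03 ± 0.852, NRCAM 0.231 ± 0.0524 and CADM1 0.0807 ± 0.0158 RPKM (SD, n = 3). MCAM and ICAM1 overlapped in this order, as did CADM4 and BCAM, while the other neighbours were apart in every control replicate. In PELP1-KD cells, ALCAM had 55.0 RPKM ± 1.59, MCAM 36.1 ± 0.395, ICAM1 28.8 ± 0.818 and BCAM 7.95 ± 0.844 RPKM (SD, n = 3). L1CAM and CADM4, which were apart in the controls, came to 12.2 RPKM ± 0.191 and 12.2 RPKM ± 0.792 (SD, n = 3) in PELP1-KD cells. The lengths used, all exons of a gene together, were 7270 bases for L1CAM and 2246 for CADM4. Their longest transcripts have 5141 and 2178 bases, so this closeness depends on the length chosen.

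The summed level of the 9 genes per exon length was 154 RPKM ± 2.35 (SD, n = 3) in the controls and 152 RPKM ± 0.883 (SD, n = 3) in PELP1-KD cells, with overlap between the groups. This overlap holds for the length used here. The sum depends on that choice and was not computed with the longest transcript as length. Summed as CPM, without regard to length, the 9 genes had between 957 and 988 CPM in the controls and between 925 and 929 CPM in PELP1-KD cells, lower and without overlap. The composition of the sum per exon length differed between the groups. ALCAM held 45.9% ± 1.81 of it in the controls and 36.1% ± 1.23 in PELP1-KD cells (SD, n = 3). The share of MCAM went from 17.4% ± 0.487 to 23.7% ± 0.132, and that of CADM4 from 4.93% ± 0.243 to 7.99% ± 0.481 (SD, n = 3). ICAM1 went from 17.1% ± 0.18 to 18.9% ± 0.493 and L1CAM from 9.83% ± 0.496 to 7.997% ± 0.0795 (SD, n = 3). None of these 5 shares overlapped between the groups.

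**Figure D2:**
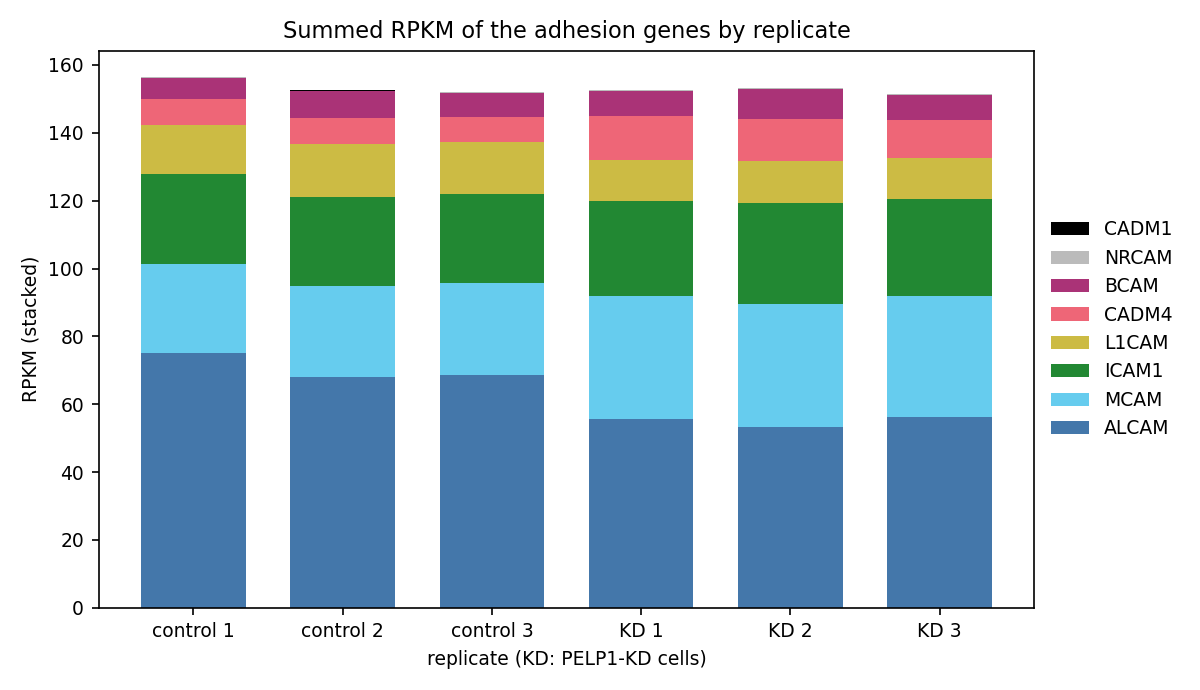
Summed RPKM (vertical axis, from 0) of the 8 genes with reads, stacked by gene, in each control and PELP1-KD replicate. The bars are of nearly equal height, at 154 RPKM on average in the controls and 152 RPKM in PELP1-KD cells, while the ALCAM part is smaller and the MCAM and CADM4 parts are larger in each PELP1-KD replicate.

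The promoters of the 3 genes called higher are shown to set CADM4 and MCAM beside the inducible ICAM1, each as 250 bases before the start of the gene from RefSeq on GRCh38.p14, matched by symbol. CADM4 lies on chromosome 19 (window chr19:43639851-43640100, minus strand), MCAM on chromosome 11 (chr11:119317131-119317380, minus strand) and ICAM1 on chromosome 19 (chr19:10270870-10271119, plus strand). Of the 9 genes, 8 had an entry, the exception being CADM1. Capitals mark the letters found by a search of both strands for the GC box GGGCGG, the E-box CACGTG bound by MYC, the TATA box TATAAA, the AP-1 site TGACTCA, the NF-κB site GGAAATTCC and the general NF-κB consensus. Overlapping matches were counted separately.
CADM4: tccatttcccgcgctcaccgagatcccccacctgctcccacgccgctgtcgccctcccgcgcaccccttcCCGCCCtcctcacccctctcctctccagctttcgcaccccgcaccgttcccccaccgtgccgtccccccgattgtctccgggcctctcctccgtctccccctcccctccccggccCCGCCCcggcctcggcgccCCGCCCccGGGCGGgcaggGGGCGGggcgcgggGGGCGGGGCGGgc
MCAM: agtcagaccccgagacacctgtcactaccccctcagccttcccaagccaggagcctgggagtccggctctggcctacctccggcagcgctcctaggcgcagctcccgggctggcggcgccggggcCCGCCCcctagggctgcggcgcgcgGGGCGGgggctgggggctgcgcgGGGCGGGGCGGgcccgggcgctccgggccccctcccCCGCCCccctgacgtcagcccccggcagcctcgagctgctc
ICAM1: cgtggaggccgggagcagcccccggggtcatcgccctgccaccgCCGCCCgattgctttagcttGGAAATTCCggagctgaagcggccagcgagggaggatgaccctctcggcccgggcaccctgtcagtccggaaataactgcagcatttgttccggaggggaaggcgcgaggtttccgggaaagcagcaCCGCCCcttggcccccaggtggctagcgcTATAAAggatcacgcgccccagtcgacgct

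The CADM4 window held 7 GC boxes and the MCAM window 5, with no match to any other of these motifs. The ICAM1 window held 2 GC boxes, 1 TATA box and 1 match to GGAAATTCC, the known NF-κB site of this gene, a spelling chosen for the search with this promoter in view. The windows of BCAM, which was not called, also held 5 GC boxes each. Among all 35116 promoter windows of the same length, 42.6% held a GC box, 10.7% a TATA box and 0.413% the letters GGAAATTCC, while 6.34% held the E-box, 4.2% the AP-1 site and 9.96% the general NF-κB consensus. None of the windows of the 8 genes held an E-box. The dinucleotide CG was found 30 times in CADM4, 26 times in MCAM and 23 times in ICAM1, with a median of 11 over all windows. Members not called higher also had many, with 20 in ALCAM, 24 and 25 in the windows of BCAM, 16 in CADM3 and 29 in a window of NRCAM, while other windows of NRCAM had 1 and 2 and those of L1CAM 8 and 5. These matches are letters in a window and no measurement of binding.

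How far reads of 50 bases can be placed on single members was read from the annotation. In the longest GENCODE transcript, all stretches of 50 bases of CADM1, CADM4, ALCAM, BCAM and NRCAM were absent from transcripts of any other gene. The share was 89.3% in MCAM, 92.3% in L1CAM and 68.4% in CADM3. It was 75.7% in ICAM1, where the shared stretches lie in annotated genes on the opposite strand of the same locus that have no row in the count tables. Since the use of strand in the counting is not given in the sources used here, reads from ICAM1 and from these genes cannot be told apart. MCAM shares exon bases with CBL on the opposite strand, a ubiquitin ligase that had 99.4 CPM ± 2.92 in the controls and 88.2 CPM ± 3.32 in PELP1-KD cells (SD, n = 3), the direction opposite to that of MCAM.

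The genes with a course over the 6 replicates most like that of CADM1 were sought by the root mean square difference of log2 CPM after subtraction of each gene's control mean. For this search the log2 CPM held a prior count of 2, which narrows the differences of genes with few reads such as CADM1. The closest were ZNF521, at a difference of 0.21, TMEM156 at 0.23, SLCO4A1 at 0.33, GLB1L2 at 0.35 and ROBO1 at 0.36. ROBO1, the Slit receptor, also has extracellular Ig domains. It had 103, 143 and 136 reads in the controls and 7, 19 and 18 reads in PELP1-KD cells. GLB1L2 was as rare as CADM1, with 13, 16 and 17 reads against 0, 1 and 1.

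Other Ig-type surface molecules were taken as 6 lists of 79 genes in all, of which 24 had no read in any replicate and 31 could be tested. Of these, 10 were called lower and 9 higher (32.3% and 29.03%, beside 24.2% and 22.7% of all tested genes), and 12 were not called. The median log2FC was 0.04, against 0.0014 over all tested genes. The p-values that follow are adjusted over all tested genes in edgeR's quasi-likelihood test. Among the nectins and other relatives of the CADM family, PVRL1 fell from 18.8 CPM ± 1.12 to 14.0 CPM ± 1.75 (SD, n = 3, log2FC = -0.42, SE 0.09, adjusted p = 6.54e-04). PVRL3 fell by 0.26 on the log2 scale (adjusted p = 1.98e-04), while PVR, the poliovirus receptor and a ligand of NK-cell receptors, rose by 0.13 (adjusted p = 0.00241). Among the vascular and leukocyte molecules, ICAM2 rose from 9.94 CPM ± 1.04 to 17.3 CPM ± 1.21 (SD, n = 3, log2FC = 0.79, SE 0.093, adjusted p = 6.34e-07). ESAM, of endothelial tight junctions, fell by 0.37 on the log2 scale (adjusted p = 7.62e-05). ICAM3, ICAM4 and ICAM5 were not called, and VCAM1 had a single read in all.

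The neural list was nearly silent, with 8 of its 14 genes without a read and 3 tested. In it CNTN1, a contactin, fell by 1.10 on the log2 scale (SE 0.25, adjusted p = 0.00117), from a level of 1.88 CPM ± 0.314 (SD, n = 3). Of 7 tested JAM and CTX-type molecules, F11R, which encodes the tight-junction protein JAM-A, rose from 20.9 CPM ± 1.18 to 31.0 CPM ± 1.38 (SD, n = 3, log2FC = 0.57, SE 0.067, adjusted p = 6.35e-07). Of the CEACAM and IgLON molecules, 10 of 16 had no read, and NEGR1 fell by 0.51 on the log2 scale (adjusted p = 5.75e-06). Among 10 other tested Ig-type proteins, IGSF3 fell by 0.62, CD47, the ligand of SIRPA, fell by 0.30, and NPTN fell by 0.25 on the log2 scale (adjusted p of 6.27e-07, 9.97e-06 and 3.65e-05). In the same list the immune checkpoint molecule CD276 rose by 0.31 and SEMA7A by 0.28 (adjusted p of 3.46e-05 and 8.75e-05). Other calls, all weaker, were lost when single replicates were left out. MPZL1, with a log2FC of -0.09, lost its call without control replicates 1 or 2 or PELP1-KD replicates 1, 2 or 3, at values from -0.10 to -0.07. CLMP, with 0.22, lost it without control replicates 2 or 3 or PELP1-KD replicates 1 or 3, at values from 0.17 to 0.23. CEACAM19, with 0.61, lost it without control replicates 2 or 3 or PELP1-KD replicates 1, 2 or 3, at values from 0.50 to 0.66. SIRPA, with 0.35, lost it without control replicates 2 or 3 or PELP1-KD replicates 1 or 2, at values from 0.22 to 0.37.

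**Figure D3:**
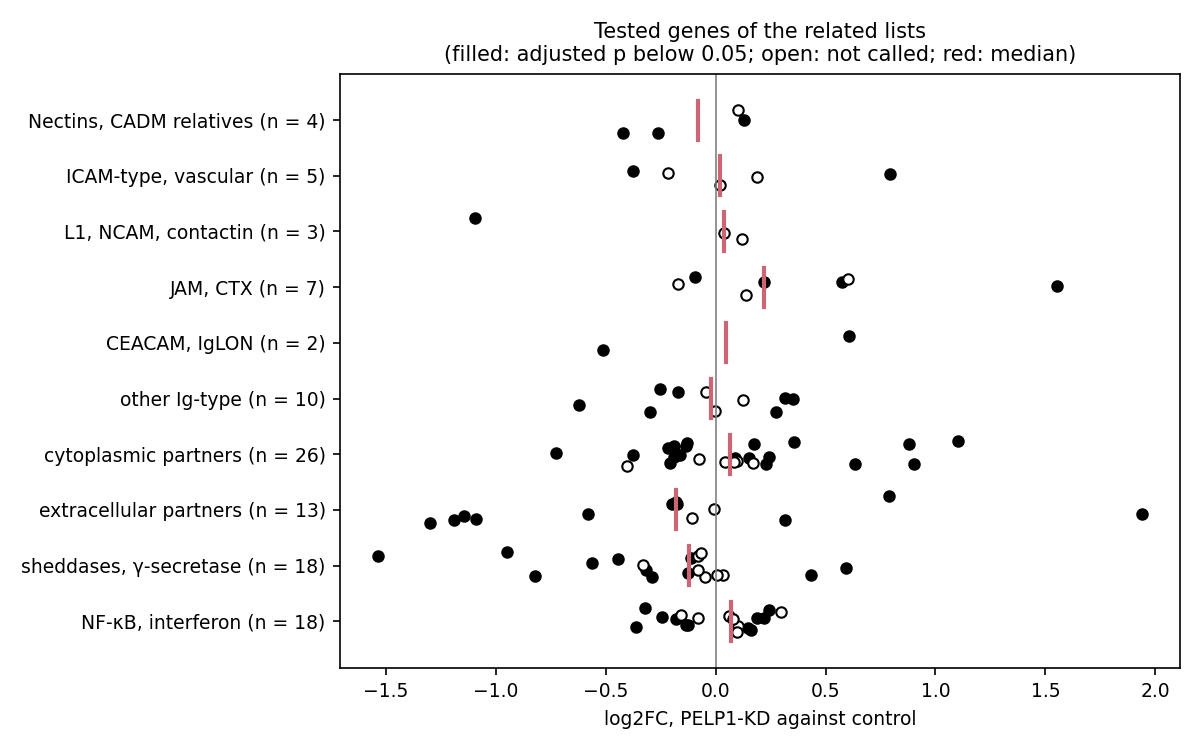
The log2FC (horizontal axis, PELP1-KD against control) of each tested gene in the 6 lists of other Ig-type molecules and the 4 lists of partners and regulators, with filled points for an adjusted p-value below 0.05, open points for genes not called, a red line at each list's median and vertical scatter for legibility only. Calls lie on both sides of 0 in 9 of the 10 lists, and the values run from -1.53 in TIMP3 to 1.94 in ITGB3.

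Partners and regulators were taken as 4 lists of 84 genes, of which 75 could be tested. Of these, 33 were called lower and 20 higher (44% and 26.7%, beside 24.2% and 22.7% of all tested genes). With library totals, 27 were called lower and 24 higher. In that setting 2419 of all 12796 tested genes were called lower and 3817 higher, in place of 3103 and 2904. Of 26 tested molecules that bind the cytoplasmic tails, 10 were called lower and 10 higher (38.5% each, beside 24.2% and 22.7%) and 6 were not called, at a median log2FC of 0.06. DLG1, a PDZ scaffold protein of cell junctions, fell from 259 CPM ± 11.3 to 156 CPM ± 2.19 (SD, n = 3, log2FC = -0.73, SE 0.037, adjusted p = 2.01e-12). CASK, a scaffold protein that binds the tail of CADM1, fell by 0.38 on the log2 scale (adjusted p = 1.11e-05). Its partners in the same scaffold differed in direction. APBA1 rose by 1.10 and LIN7B by 0.90 (adjusted p of 8.63e-07 and 2.25e-04), the latter from 3.76 CPM ± 1.001 (SD, n = 3). LIN7C, named after its values were seen, was at 52.3 CPM ± 3.27 (SD, n = 3) in the controls and fell by 0.18 on the log2 scale (adjusted p = 0.0236). The groups of LIN7C overlapped. MPP2, related to CASK, rose by 0.88 (adjusted p = 3.32e-09). EZR, the ezrin that links such tails to actin, fell by 0.22 on the log2 scale (adjusted p = 4.85e-06). EPB41L3, the 4.1 protein best known to bind CADM1, was named after its values were seen. It had 5, 11 and 12 reads in the controls and 1, 1 and 1 in PELP1-KD cells, and the default filter removed it. Its level was 10.5-fold higher in the controls (95% exact binomial interval on the pooled reads 3.23 to 53.8, counting error only).

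Of 13 tested extracellular partners, 8 were called lower and 3 higher (61.5% and 23.1%, beside 24.2% and 22.7% of all tested genes), with a median log2FC of -0.18. SEMA3A, a semaphorin whose receptor contains L1CAM, CNTNAP1, a partner of contactins, and LAMA4, the laminin alpha-4 chain, fell by 1.30, 1.19 and 1.14 on the log2 scale (adjusted p of 9.39e-05, 9.48e-10 and 9.79e-04). LAMA5, the laminin chain bound by BCAM, was named after its values were seen and fell from 45.9 CPM ± 6.05 to 21.6 CPM ± 1.43 (SD, n = 3, log2FC = -1.09, adjusted p = 8.52e-10). ITGB3, the integrin beta-3 chain that binds L1CAM in its pair with ITGAV, rose from 3.98 CPM ± 0.456 to 15.3 CPM ± 0.633 (SD, n = 3, log2FC = 1.94, SE 0.11, adjusted p = 8.61e-12). ITGA5, another integrin chain, rose by 0.32 (adjusted p = 1.29e-06). ITGB2, the beta chain of the ICAM1 receptors, rose by 0.79 (adjusted p = 8.06e-06), but its alpha chains ITGAL, ITGAM and ITGAX had between 0 and 4 reads per replicate. CD6, the ligand of ALCAM, had a single read in all.

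Adhesion molecules are shed from the surface by ADAM, MMP14 and BACE proteases and then cut in the membrane by gamma-secretase. The 18 genes listed for this include the inhibitors TIMP1 and TIMP3. Of the 18, 9 were called lower, TIMP3 among them, and 2 higher (50.0% and 11.1%, beside 24.2% and 22.7% of all tested genes), with a median log2FC of -0.12. ADAM8 fell from 73.6 CPM ± 3.47 to 38.2 CPM ± 1.90 (SD, n = 3, log2FC = -0.95, SE 0.054, adjusted p = 1.51e-11). BACE1 fell by 0.82 on the log2 scale (adjusted p = 1.15e-10). TIMP3, an inhibitor of metalloproteases, fell by 1.53 (SE 0.063, adjusted p = 7.77e-14). ADAM19 and the gamma-secretase subunit APH1B rose by 0.59 and 0.43 (adjusted p of 4.98e-10 and 2.79e-04). The main sheddases of L1CAM and ALCAM, named after their values were seen, were ADAM17, with a log2FC of -0.56 (adjusted p = 7.80e-09), and ADAM10, with -0.08 and no call (SE 0.04, adjusted p = 0.11).

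ICAM1 is a classical target of NF-κB and interferon signaling. Of 18 genes of these pathways, 6 were called lower and 5 higher (33.3% and 27.8%, beside 24.2% and 22.7% of all tested genes), with a median log2FC of 0.07 and no value beyond -0.36 or 0.30. The kinases IKBKB and JAK1 fell by 0.36 and 0.32 on the log2 scale (adjusted p of 2.67e-05 and 1.53e-06), while NFKB2 and STAT3 rose by 0.24 and 0.16 (adjusted p of 6.81e-04 and 8.49e-04). RELA, the main activating subunit, had 131 CPM ± 3.33 in the controls and 138 CPM ± 2.13 in PELP1-KD cells (SD, n = 3) and was not called. TNFAIP3, a feedback inhibitor with a log2FC of -0.24, lost its call without control replicates 2 or 3 or PELP1-KD replicates 1 or 2, at values from -0.26 to -0.16. IRF1, with 0.19, lost it without control replicate 3 or PELP1-KD replicates 1 or 2, at values from 0.15 to 0.17.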

How the data were processed

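The authors deposited, for each replicate, the count of reads per gene symbol without normalization. Single reads of 50 bases were sequenced from stranded poly(A) libraries. The submitters' processing notes name bcl2fastq, TopHat2, SAMtools, HTSeq and hg19. Versions, annotation and strand setting are not given in the sources used here. The closing totals of the tables stayed out of library sizes and tests. Reads with several alignments were between 32.5% and 32.9% of each replicate, reads on no gene between 7.64% and 8.19%, and ambiguous reads between 0.657% and 0.688%.

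Counts were tested in edgeR 4.0.16 (R 4.3.3) by the quasi-likelihood test on the 2 groups of 3 replicates, after filterByExpr with a minimum count of 10 and TMM scaling, with Benjamini-Hochberg adjustment over all tested genes. The paper's methods name DESeq2, which was run as an alternative. Standard errors are the ratio of the log2FC to the root of the F statistic. The scripts were tested on simulated data. Within a group, replicates differed beyond counting noise (chi-square per degree of freedom from 1.46 to 3.99). Exon lengths, shared stretches and exon overlaps came from GENCODE release 29 on GRCh38, a build other than that of the counts. Its genes were matched to the counts by symbol, not by coordinates. Depth limits the precision, and a floor of 3 counts covers counting error only.

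The members, gene lists and tests were chosen with earlier results of these data known. The genes named are PELP1, the 9 members, up to 3 genes per direction and list with the largest log2FC among called genes without overlap between the groups, and the 5 genes most like CADM1. Some genes of the lists are not reported here by name. Alternatives were RLE factors, library totals, limma 3.58.1 with voom, DESeq2 1.42.0, a count of at least 10 throughout, no filter, a block for the replicate number, each replicate left out and another exon length.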

Additional observations from a re-analysis of the deposited data

How the results depend on the processing

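Over 13 alternative settings, no called member or named gene changed sign, and 35 of the 41 named genes of the lists kept their call in every setting in which they were tested. MPZL1, CLMP, CEACAM19, SIRPA, TNFAIP3 and IRF1 lost theirs in DESeq2, and MPZL1 and TNFAIP3 also with library totals. CADM1 was removed by the demand for 10 counts in every replicate. With each replicate left out in turn, its fitted log2FC lay between -7.19 and -4.04, the former without PELP1-KD replicate 2, where the remaining replicates had no read, and it depends on the prior count. The log2FC of ICAM1 lay between 0.11 and 0.15 with a replicate left out, that of BCAM between 0.079 and 0.25, and that of NRCAM between -0.54 and -0.11, the former without PELP1-KD replicate 1. BCAM was also called higher with library totals, at 0.22, and without a filter, at 0.17, and the cause was not tested. Deviations of same-numbered replicates correlated at 0.039, 0.065 and -0.078. Pairing by number was not seen by this measure, which cannot exclude it. With a block for the replicate number, 3335 genes were called lower and 3140 higher in place of 3103 and 2904, the log2FC of BCAM was 0.18 with a call, and no other call of a member changed. With library totals, 2419 genes were called lower and 3817 higher.

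With the longest transcript as length, control levels were 108 RPKM for ALCAM, 40.8 for MCAM, 30.0 for ICAM1, 21.4 for L1CAM, 10.3 for BCAM and 0.103 for CADM1, which follows from the shorter length. This sets MCAM above ICAM1 and BCAM above CADM4. With library totals, MCAM had 26.3 and ICAM1 25.9 RPKM.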
